A study of Mus musculus with 24 samples.

Results

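Shelterin is the protein complex that sits on the telomere repeats at chromosome ends. The 7 mouse genes described here encode its subunits: Terf1 (TRF1), Terf2 (TRF2), Tinf2 (TIN2), Acd (TPP1), Pot1a, Pot1b and Terf2ip (RAP1). They were chosen by symbol, and every probe assigned to them through its transcript accession was used. They made up 7 of the 21364 genes with a symbol on the array and 11 of its 55681 non-control probes.

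The transcripts were measured with 1-colour Agilent arrays in 6 females, each giving whole brain, heart, liver and skeletal muscle. The 3 knockin (KI) mice, labelled MUT, carried the I312R change in Rap1, and the 3 wild-type (WT) mice were littermates. Letters stand for the animals in order of their numbers, A to C for KI and D to F for WT. The 24 arrays thus formed 8 groups of 3. Age was 14 months for C and F and 15 months for the rest. The KI allele came from CRISPR/Cas9 editing of the germ line, was homozygous in the KI mice the study profiled, and had been backcrossed 4 times to C57BL6 mice (C57BL/6N in the study's methods). Both genotypes shared sex, age range and background, and no treatment is named.

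TRF1 and TRF2 each bind double-stranded telomere repeats as homodimers. TIN2 bridges TRF1 and TRF2 and binds TPP1, which brings in POT1 and is a docking point for telomerase. POT1 covers the single-stranded overhang, and rodents have a pair of Pot1 genes where most mammals have a single one. RAP1 reaches telomeres through TRF2 and is also known to act on gene transcription away from telomeres and on the IKK kinases that activate NF-κB. Isoleucine 312 is needed for RAP1 to associate with TRF2.

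The editing oligos are shown because they define the only designed difference between the genotypes. The guide's bases that the donor replaces are in capitals in the guide, and the replacing bases are in capitals in the donor; both run 5′ to 3′ on the same strand.
sgRNA: gaactgccattaaggtgATC
donor: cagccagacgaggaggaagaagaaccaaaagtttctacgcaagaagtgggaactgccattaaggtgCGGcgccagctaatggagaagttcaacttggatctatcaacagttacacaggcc
The guide of 20 bases lay at positions 50 to 69 of the donor of 120 bases and matched it at 17 positions. Counted from 1 at the guide's 5′ end, the differences were A18C, T19G and C20G. They turn an ATC codon (isoleucine) into CGG (arginine). The labels count 4 changed bases, and the study's methods mark the remaining, silent one in the codon after it.

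A level here is log2 of a probe's processed signal minus log2 of its array's 75th percentile, so 0 is the brightness of the 75th percentile. Levels of different probes depend on their sequences and are not set against each other. Terf2ip had 2 probes, Terf2 had 3, Tinf2 had 2, and the other genes had 1 each. Probes of a gene are numbered by falling mean over the 24 arrays, and probe 1 stands for the gene in counts. The signals at the 75th percentile ranged from 312 to 2519 between arrays, and 49.4% to 68.4% of probes were well above background. Of the listed markers, Alb was high in liver, Syt1 in brain, Myh6 in heart and Myh4 in muscle. Others did not mark their tissue: the muscle gene Mylpf stayed at a level of -3.22 to -0.92 in muscle, the heart gene Myl7 had a median of -0.97 in heart, the neuronal Snap25 had medians of 6.29 in heart and 5.76 in muscle against 6.51 in brain, and the microglial Aif1 had medians of 2.52 in liver and 1.83 in brain. Of the 24 arrays, 3 were singled out for a raised marker of another tissue, and no cutoff is given for it. Alb reached 6.53 in the brain of mouse C, Myh4 reached 1.45 in the liver of mouse C, and Wfdc18, a mammary gene, reached 2.30 in the muscle of mouse B, where Csn3, another mammary gene, was not well above background. Wfdc18 also reached 1.42 in the brain of mouse C. It was well above background on all 6 liver and all 6 brain arrays, so whether the muscle of mouse B held mammary cells is not settled by it. Liver and brain RNA was extracted with another kit than heart and muscle RNA, and the 3 slides held different tissues, so tissue differences across those pairs cannot be told apart from the kit, and liver and muscle, liver and heart, and brain and muscle shared no slide, so no within-slide value exists for them. In whole tissue, fewer cells of a type and less RNA per cell cannot be told apart either.

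Of the 11 probes, 10 were well above background on all 24 arrays. The Pot1b probe passed the detection filter (all 3 arrays of a genotype) in no tissue and is described separately. The first question was whether the mutation, which stops RAP1 from being held at telomeres, changed the transcripts of the complex.

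In no tissue did a shelterin transcript pass the test between KI and WT mice. Of the 10 probes tested, 0 passed at an adjusted p under 0.05 in limma in any of the 4 tissues, in each mouse's mean over tissues, or in the test of whether the KI effect differed between tissues. Over all probes, too, the percentage called was 0 in each of these 6 comparisons. At an unadjusted p under 0.05, 0 of 10 member probes passed in liver (9% of all probes), 1 in brain (1% of all), 0 in heart (1.74%), 0 in muscle (1.55%), 0 in the mean of tissues (3.77%) and 0 in the test of differing effects (2.09%). The single probe was Terf2 probe 2 in brain.

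**Figure D1:**
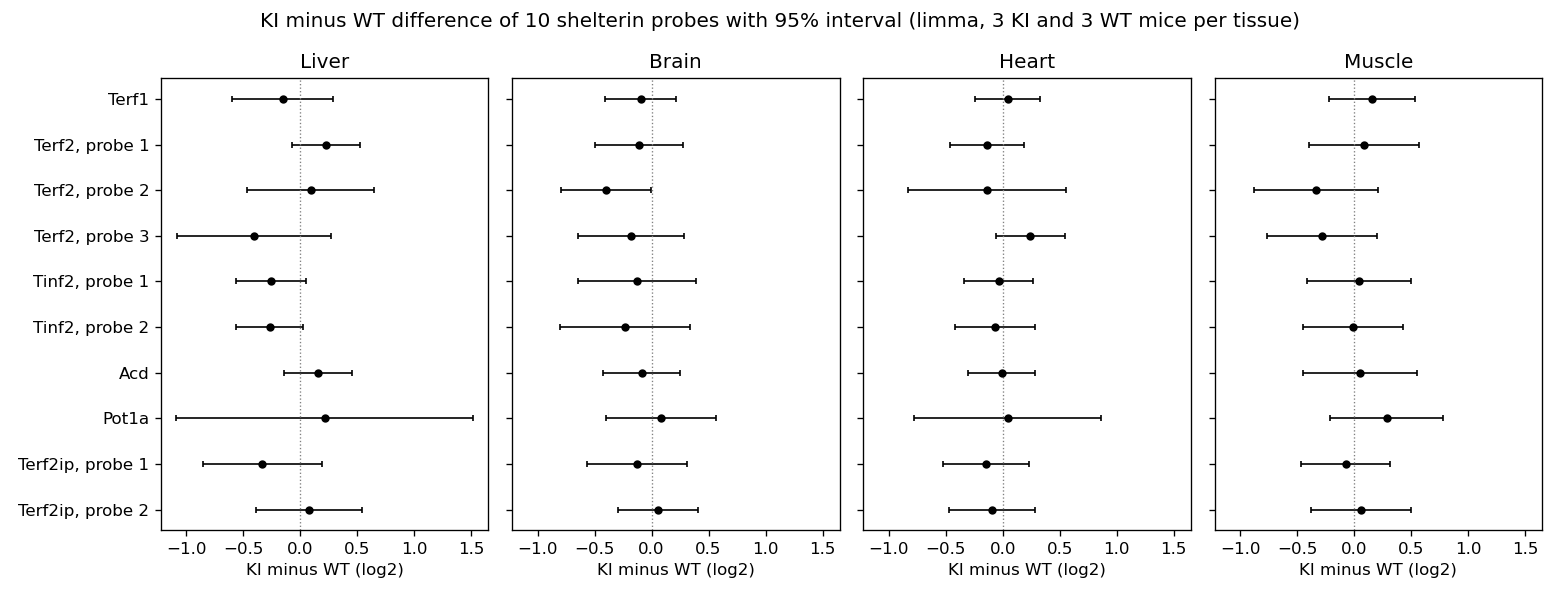
KI minus WT difference of each of the 10 tested shelterin probes (log2, horizontal axis) in liver, brain, heart and muscle, with points for the limma estimate and bars for its 95% interval from 3 KI and 3 WT mice. Every interval includes 0 except that of Terf2 probe 2 in brain, which runs from -0.80 to -0.01, and the widest is that of Pot1a in liver, from -1.09 to 1.52.

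The intervals give the size of change that these mice left possible for each probe. Leaving Pot1a aside, the 95% intervals of the probes that stand for a gene stayed between -0.85 (Terf2ip in liver) and 0.57 (Terf2 in muscle) in all 4 tissues. The Pot1a interval in liver ran from -1.09 to 1.52. Other Terf2 probes went beyond the range of -0.85 to 0.57, with -1.08 to 0.27 and -0.47 to 0.65 in liver. In muscle an interval of theirs ran from -0.88 to 0.21. Which Terf2 probe follows the messenger RNA was not tested, so that range is no bound for the gene. In the mean of 4 tissues, KI minus WT differences of the probes standing for a gene ran from -0.17 (Terf2ip) to 0.16 (Pot1a). Terf1, Terf2 and Acd lay between -0.01 and 0.03 there, and the other Terf2 probes gave -0.20 and -0.16.

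**Figure D2:**
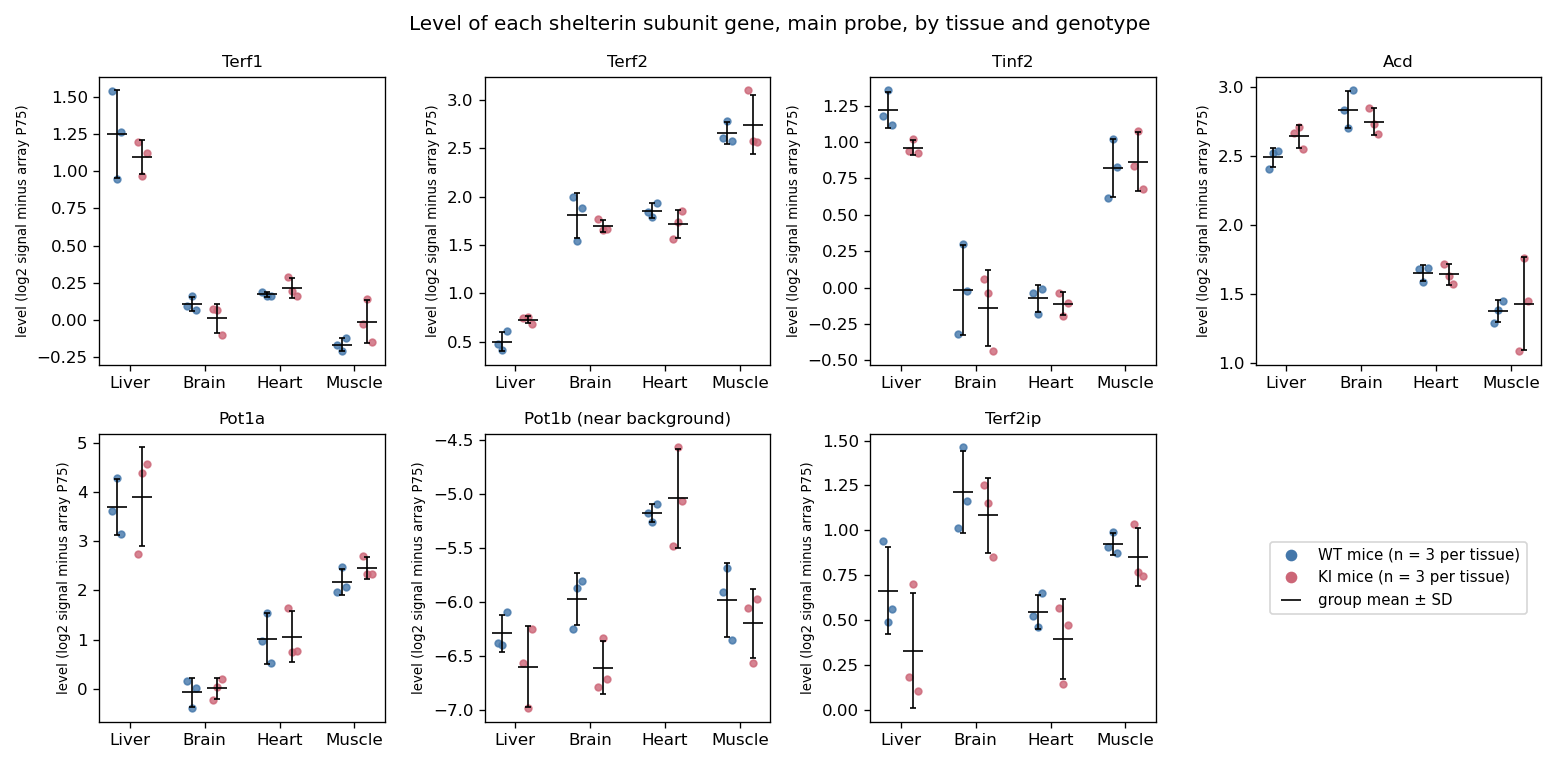
Level of probe 1 of each of the 7 genes (log2 signal minus the array's 75th percentile, vertical axis, scaled per gene) in 4 tissues. Each point is 1 mouse, with WT and KI mice in separate columns (n = 3 each) and a black bar and whiskers for the group mean ± SD. For each of the 6 measured genes the widest tissue difference exceeds the KI minus WT differences, but some tissue pairs lie closer together. Terf2ip differs by -0.03 between heart and liver, against -0.33 between KI and WT livers. Pot1b lies near background.

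Terf1 encodes TRF1, which is known for negative control of telomere length and for helping replication through the repeats. In liver its level was 1.20, 0.97 and 1.12 in KI mice A, B and C and 1.54, 0.95 and 1.26 in WT mice D, E and F. The genotypes overlapped (KI minus WT -0.15, SE 0.18, limma adjusted p = 0.760). Over the 6 mice the liver median was 1.16, against 0.07 in brain (lowest -0.10, highest 0.16), 0.18 in heart (0.16 to 0.29) and -0.13 in muscle (-0.21 to 0.14). Every liver lay above every array of the other tissues. Terf1 was lower in brain than in liver by 2.17-fold (difference -1.11, SE 0.09, limma adjusted p = 1.99e-09), and lower in heart by 1.97-fold (-0.98, adjusted p = 2.00e-08) and in muscle by 2.40-fold (-1.26, adjusted p = 4.28e-10). Within the slide that held liver and 2 brain arrays, the brain minus liver difference was -1.09. Heart and brain did not differ beyond their spread (0.13, 95% interval -0.06 to 0.33, adjusted p = 0.204), nor did muscle and brain (-0.15, interval -0.35 to 0.05, adjusted p = 0.153). Muscle lay below heart (-0.28, adjusted p = 0.0156), a call lost with the slide as a block (adjusted p = 0.163) and without mouse A, C or F (0.0531 to 0.0690). That call was also lost in WT mice alone (limma adjusted p = 0.0894) and in KI mice alone (0.255). The 6 hearts were close together: their pooled SD within genotypes was 0.05, above that of only 0.836% of all probes tested in heart.

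Terf2 encodes TRF2, the subunit that forms and guards the protective loop at the telomere end and is RAP1's partner there. Probe 1 read 0.74, 0.76 and 0.69 in KI livers A, B and C and 0.47, 0.42 and 0.62 in WT livers D, E and F. The KI livers lay above the WT livers without overlap, but the difference of 0.23 (SE 0.12) did not pass the test (limma adjusted p = 0.582). Probe 2 overlapped between genotypes in liver (0.09, SE 0.23), and probe 3 differed by -0.40 (SE 0.28, adjusted p = 0.624), so the 3 probes did not share a direction. Without the liver of mouse C, which held muscle transcripts, probe 3 differed by -0.66 (adjusted p = 0.654). In brain, probe 2 read -0.94, -1.0 and -0.95 in KI mice and -0.37, -0.84 and -0.47 in WT mice. The KI brains lay below the WT brains (-0.40, SE 0.17, unadjusted p of limma 0.0465, adjusted p = 1.00), while probe 1 (-0.11) and probe 3 (-0.18) overlapped there. In heart, probe 3 was -1.76, -1.95 and -1.90 in KI mice and -2.16, -2.04 and -2.13 in WT mice, again without overlap and without passing (0.24, SE 0.13, adjusted p = 0.997).

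**Figure D3:**
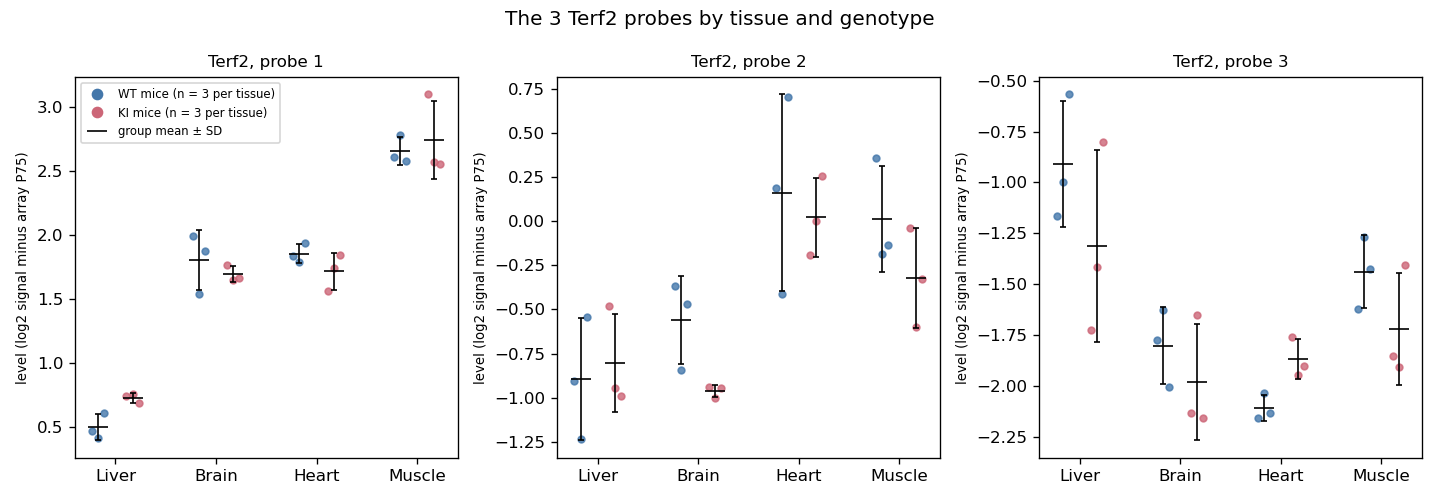
Level of each of the 3 Terf2 probes (log2 signal minus the array's 75th percentile, vertical axis, scaled per probe) by tissue, with 1 point per mouse, WT and KI in separate columns (n = 3 each) and black bars for mean ± SD. Probe 1 is highest in muscle and lowest in liver, probe 2 is highest in heart, and probe 3 is highest in liver.

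Between tissues the Terf2 probes disagreed, so no single tissue order can be given for the gene. Probe 1 had a median of 2.59 in muscle, 1.82 in heart, 1.72 in brain and 0.65 in liver. It was higher in muscle than in liver by 4.24-fold (2.09, SE 0.11, limma adjusted p = 1.31e-12), higher in brain than in liver (1.13, adjusted p = 8.57e-09), and higher in heart than in liver (1.17, adjusted p = 8.32e-09). Heart and brain did not differ in it (0.04, 95% interval -0.19 to 0.26). Probe 2 was higher in heart than in liver (0.94, adjusted p = 1.29e-04) and in brain (0.85, adjusted p = 3.03e-04), while brain and liver did not differ (0.09, interval -0.29 to 0.47). Like probe 1, it was higher in muscle than in liver (0.69, limma adjusted p = 0.00201) and in brain (0.61, adjusted p = 0.00491). Unlike probe 1, it did not differ between muscle and heart (-0.24, interval -0.62 to 0.13). Against liver, probe 3 went the other way from probe 1: it was lower by 0.78 in brain (-0.78, adjusted p = 1.42e-04), by 0.88 in heart (-0.88, adjusted p = 5.18e-05) and by 0.47 in muscle (-0.47, adjusted p = 0.0111). Both were higher in muscle than in heart, by 0.91 on probe 1 and 0.41 on probe 3 (limma adjusted p = 6.75e-07 and 0.0310). Muscle minus brain was 0.95 on probe 1 (limma adjusted p = 1.24e-07) and 0.31 on probe 3 (0.0721). Over the 24 arrays Pearson's r was 0.57 between probes 1 and 2, -0.47 between probes 1 and 3 and -0.39 between probes 2 and 3. Probes 1 and 3 were assigned to the same reference transcript and probe 2 to another. Which of them follows TRF2 messenger RNA was not tested, since the probe sequences were not used here.

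Tinf2 encodes TIN2, the bridge between TRF1, TRF2 and TPP1. Its probes gave like differences between genotypes in liver. In liver, probe 1 read 0.94, 1.02 and 0.93 in KI mice and 1.18, 1.36 and 1.12 in WT mice. Probe 2 read 0.58, 0.68 and 0.74 in KI livers and 0.98, 0.98 and 0.85 in WT livers. Both probes put every KI liver below every WT liver, by 0.26 (-0.26, SE 0.13) and 0.27 (-0.27, SE 0.12), but neither passed the test (limma adjusted p = 0.574 and 0.561). Such separation was common in liver: the genotypes did not overlap for 4 of the 10 member probes there, against 16.9% of all probes tested. The 4 were Terf2 probe 1, both Tinf2 probes and Acd. In brain it held for 1 of 10 (3.19% of all), in heart for 1 of 10 (5.53% of all) and in muscle for 0 of 10 (4.71% of all). The Tinf2 differences in the other tissues were smaller, between -0.23 and 0.04, with overlapping genotypes, and in brain probe 1 changed sign without mouse C, whose brain held liver transcripts (0.02), or without mouse E (0.03).

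Tinf2 was high in liver and muscle and low in brain and heart. The medians of probe 1 were 1.07 in liver, 0.83 in muscle, -0.03 in brain and -0.07 in heart, and those of probe 2 were 0.79, 0.96, -0.26 and 0.08. No brain or heart array reached the lowest liver or muscle array on either probe. Brain was 2.25-fold below liver on probe 1 (-1.17, SE 0.12, limma adjusted p = 2.77e-08) and 2.18-fold on probe 2 (-1.12, adjusted p = 1.36e-07). Heart was below liver on both (-1.18 and -0.69, adjusted p = 3.44e-08 and 7.83e-05), and muscle was above heart on both (0.94 and 0.86, adjusted p = 1.94e-06 and 1.31e-05). The within-slide differences kept these sizes, with -1.22 for brain minus liver and 0.90 for muscle minus heart on probe 1. Liver and muscle did not differ in the main test on either probe (muscle minus liver -0.25, interval -0.49 to 0.00, and 0.17, interval -0.10 to 0.43), and the signs of the probes were opposite. Without the 3 arrays singled out for a marker of another tissue, the probe 1 difference was -0.31 and passed (limma adjusted p = 0.0314). It also passed after normexp background correction (-0.29, adjusted p = 0.0205). Heart and brain agreed on probe 1 (-0.02, interval -0.26 to 0.23) and differed on probe 2 (0.43, adjusted p = 0.00486). Over the 24 arrays the probes correlated at r = 0.91, and the deviations from the group means at 0.87.

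Acd encodes TPP1, the partner of POT1 and the subunit that recruits telomerase. In liver it read 2.67, 2.71 and 2.55 in KI mice and 2.41, 2.52 and 2.54 in WT mice. The KI livers lay just above the WT livers, the gap between the nearest mice being smaller than the spread within either genotype, and the difference did not pass (0.15, SE 0.12, limma adjusted p = 0.655). In brain, heart and muscle the KI minus WT differences were -0.09, -0.01 and 0.05, all with overlap. Across tissues Acd was high in brain (median 2.79, from 2.66 to 2.98) and liver (2.55, from 2.41 to 2.71) and low in heart (1.66, from 1.58 to 1.72) and muscle (1.42, from 1.09 to 1.76). It was lower in heart than in brain by 2.22-fold (-1.15, SE 0.10, limma adjusted p = 4.29e-09; -1.12 within a slide), lower in heart than in liver (-0.92, adjusted p = 1.11e-07) and lower in muscle than in brain by 2.62-fold (-1.39, adjusted p = 2.18e-10). Brain passed above liver (0.23, adjusted p = 0.0448) and heart above muscle (muscle minus heart -0.24, adjusted p = 0.0460) in the main test only narrowly. The first was lost with the mouse as a block (adjusted p = 0.0579), with the slide as a block (0.106) and without any of mice A, C, D, E and F (0.0567 to 0.146). In KI mice alone it was 0.11 (adjusted p = 0.620). The second was lost with the mouse as a block (0.0602), with the slide as a block (0.238) and without any of the same mice (0.0859 to 0.262). It was also lost in WT mice alone (limma adjusted p = 0.0900) and in KI mice alone (0.392).

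Pot1a encodes the POT1 protein that in mice is known to hold back the ATR response at the single-stranded overhang. Its probe had the largest tissue differences of the members and, in liver and heart, the largest spread between mice. In liver it read 2.75, 4.40 and 4.58 in KI mice A, B and C and 3.63, 4.30 and 3.16 in WT mice D, E and F. The genotypes covered overlapping ranges, with mouse A lowest and mouse C highest, and the KI minus WT difference was 0.21 (SE 0.54, limma adjusted p = 0.891). The pooled SD within genotypes of 0.82 exceeded that of 94.6% of the probes tested in liver, and in heart the SD of 0.52 exceeded 89% of probes. In muscle, KI mice read 2.71, 2.33 and 2.33 and WT mice 1.97, 2.47 and 2.08, with overlap (0.29, SE 0.21, adjusted p = 1.00). The medians were 3.96 in liver, 2.33 in muscle, 0.87 in heart and 0.03 in brain. Pot1a was lower in brain than in liver by 14.3-fold (-3.84, SE 0.29, limma adjusted p = 2.87e-10), lower in heart than in liver by 6.81-fold (-2.77, adjusted p = 5.38e-08), and lower in muscle than in liver by 2.80-fold (-1.49, adjusted p = 1.18e-04). Muscle lay above heart (1.28, adjusted p = 8.58e-04) and heart above brain (1.07, adjusted p = 0.00228), the latter lost in KI mice alone (1.05, adjusted p = 0.0556). The muscle minus liver call was lost with the slide as a block (-0.90, adjusted p = 0.299), and the within-slide differences were -3.84 for brain minus liver, 1.27 for heart minus brain and 1.67 for muscle minus heart.

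The pattern of the Pot1a probe was shared almost point for point by probes of other genes. Its 3 most similar genes over the 24 arrays were Gxylt2 (Pearson's r = 0.999), Zfp791 (0.999) and 2310002F09Rik (0.997). In all, 77 of the 37191 other probes compared correlated with it at 0.99 or more, and 53 of these carried the symbols of 53 genes. For the other 9 tested member probes that number was 0, the highest r being 0.988. The likeness held among mice of the same group: once group means were removed, 75 probes still correlated with Pot1a at 0.95 or more, and the 3 named genes did so at 0.98 to 0.99. Of all 37192 probes, 85.5% had no such partner and 0.207% had 75 or more. The low liver of mouse A and the high liver of mouse C recurred in each of them, with Gxylt2 at 3.23 and 5.35 and Zfp791 at 3.98 and 5.98. Whether these probes share sequence with the Pot1a probe was not tested, since probe sequences were not used here, and each Pot1a value above is the value of that probe only.

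**Figure D4:**
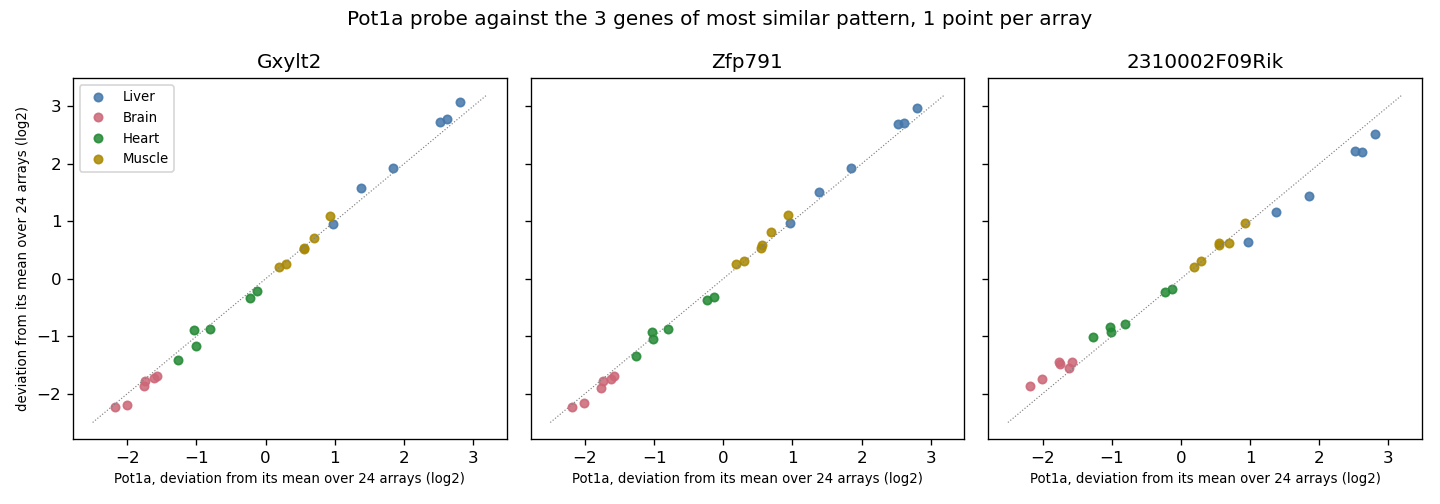
Deviation of the Pot1a probe from its mean over 24 arrays (log2, horizontal axis) against the same deviation of Gxylt2, Zfp791 and 2310002F09Rik (vertical axis), with 1 point per array, coloured by tissue, and a dotted line where both deviations are equal. The points of each panel follow a single line (r = 0.997 to 0.999), within tissues as well as between them.

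Pot1b encodes the second POT1 protein, which is known to limit resection of the overhang. Each array carried 10 spots of its probe, of which 8 to 10 were used. Most of those spots were well above background on 5 arrays only: the brains of WT mice E and F and the hearts of KI mice B and C and WT mouse D. Liver had 2 such spots on 1 array, mouse D, and muscle had 0. The heart levels were -5.48, -4.57 and -5.07 in KI mice and -5.18, -5.26 and -5.09 in WT mice, and the genotypes overlapped. The brain levels were -6.79, -6.33 and -6.71 in KI mice and -6.25, -5.87 and -5.80 in WT mice. The KI brains lay below the WT brains, but none of the 3 KI brains was well above background, so this is no measured difference. In a fit without the detection filter the brain difference was -0.63 (SE 0.22, unadjusted p of limma 0.0265, adjusted p = 1.00). No fold between tissues is given. The heart mean of -5.11 did not exceed the mean floor of liver (-5.04) or muscle (-4.28). It exceeded that of brain (-6.09), where 2 of 6 arrays were well above background, against 3 of 6 in heart. Without the detection filter heart minus brain was 1.18 (SE 0.18, limma adjusted p = 1.09e-05), and within a slide it was 1.05. Both rest in part on arrays not well above background, so neither is taken as a measured difference. With lower values raised to the floor, the means were -4.96 in heart and -5.81 in brain. The floor is the lowest level that was well above background on an array.

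**Figure D5:**
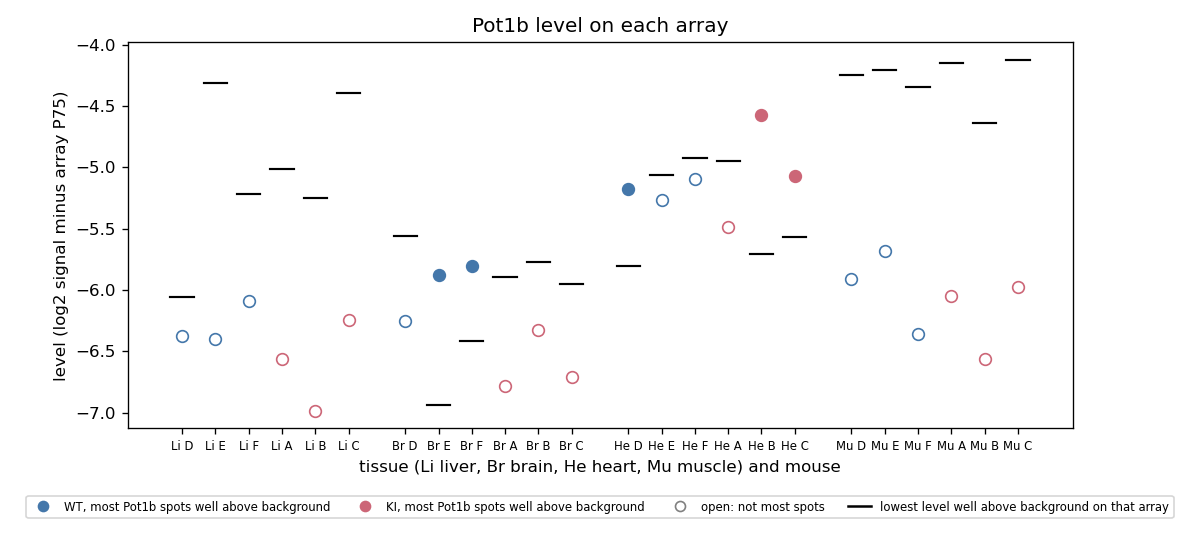
Level of the Pot1b probe (log2 signal minus the array's 75th percentile, vertical axis) on each of the 24 arrays, filled where most of its spots were well above background and open where they were not, with a black bar at the lowest level well above background on that array. Of the 24 points 5 are filled, 3 in heart and 2 in brain, and every liver and muscle point is open.

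Terf2ip, the edited gene, encodes RAP1. The change of 3 bases inside a codon leaves the transcript's length as it was. Whether either probe lies over the changed bases was not tested, since probe sequences were not used here. A KI minus WT difference of a probe may thus reflect the transcript's amount or its match to the allele. Probe 1 was lower in the KI mean than in the WT mean in all 4 tissues, by -0.33 in liver, -0.15 in heart, -0.13 in brain and -0.074 in muscle, but the genotypes overlapped in each. In the mean of the 4 tissues the difference was -0.17 (SE 0.09, 95% interval -0.39 to 0.05, limma adjusted p = 0.994). Leaving out 1 mouse moved the liver value between -0.52 and -0.20, that of heart between -0.24 and -0.026 and that of brain between -0.23 and -0.0040. Probe 2 gave 0.076 in liver, -0.095 in heart, 0.060 in brain, 0.063 in muscle and 0.026 (SE 0.093) in the mean. The probes opposed each other in liver, brain and muscle. Their deviations from the group means correlated at r = -0.21. Without the brain of mouse C, which held liver transcripts, the brain difference of probe 1 was -0.01.

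Across tissues the Terf2ip probes had the same leading order, with brain highest and muscle next. The medians of probe 1 were 1.16 in brain, 0.89 in muscle, 0.50 in heart and 0.53 in liver, and those of probe 2 were -1.41, -1.85, -2.28 and -2.67. Brain was above liver on both (0.65, SE 0.13, limma adjusted p = 1.29e-04, and 1.11, adjusted p = 5.40e-08) and above heart on both (heart minus brain -0.68 and -0.82, adjusted p = 9.21e-05 and 3.95e-06). Muscle was above heart on both (0.42 and 0.47, adjusted p = 0.00943 and 0.00222; 0.33 and 0.49 within a slide). On probe 1 that call was lost with the slide as a block (adjusted p = 0.181), in the deposited scores (0.0535), in WT mice alone (0.0827) and in KI mice alone (0.112). Muscle over liver on probe 1 (0.39, adjusted p = 0.0107) was lost with that block (0.587) and without mouse A (0.0710) or E (0.0573). It was also lost in WT mice alone (0.183) and in KI mice alone (0.0530). Heart and liver did not differ on probe 1 (-0.03, interval -0.30 to 0.24), and on probe 2 heart was above liver (0.29, adjusted p = 0.0350). Brain over muscle did not pass on probe 1 (muscle minus brain -0.26, adjusted p = 0.0683) and did on probe 2 (-0.35, adjusted p = 0.0112).

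Set side by side, the subunits did not share a tissue order. Terf1, Tinf2 and the Pot1a probe were lower in brain and heart than in liver, and Terf2 on probe 1 was higher in both. Acd was lower in heart and muscle than in brain and liver, and Terf2ip was higher in brain than in liver and heart. Pot1a, here and in the counts that follow, means that probe only. Another 77 probes correlated with it at 0.99 or more. All 10 tested probes differed between tissues (limma F-test), as did 96% of all probes, so passing is no mark of this complex. Of the 6 genes tested, 6 passed between brain and liver (80.8% of all probes passed), 5 between heart and liver (69.2%), 5 between muscle and liver (74%), 3 between heart and brain (77.4%), 4 between muscle and brain (80.1%) and 6 between muscle and heart (57.1%). The median difference of all probes was -0.34, 0.11, 0.31, 0.37, 0.50 and 0.12 in the same comparisons. With the slide as a block, the muscle and liver count was 3 and the muscle and heart count was 3. The latter was also 3 in WT mice alone and 3 in KI mice alone.

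The 32 listed partner genes bind shelterin subunits, maintain telomeres, signal from unprotected ends, or are the IKK kinases. Between genotypes 0 of them passed in any tissue, with 31 or 32 tested. At an unadjusted p of limma under 0.05 there were 4 of 31 in liver (9% of all probes) and 1 of 31 in heart (1.74%). In brain there were 0 of 32 (1% of all) and in muscle 0 of 31 (1.55%). Those in liver were Stn1, a CST subunit (KI minus WT 0.51), Tnks, a tankyrase (0.47), Pinx1, an inhibitor of telomerase (-0.39), and Gnl3, nucleostemin (-0.57), each with a limma adjusted p = 0.543. The one in heart was Tert, the catalytic subunit of telomerase (-0.70). Between tissues most passed. In brain against liver 11 were higher and 18 lower, with a list median of -0.49 against -0.34 over all probes. Those of smallest p were Ten1, a subunit of the CST complex that fills in the C-rich strand (3.77, limma adjusted p = 3.85e-15), Trp53bp1, a sensor of uncapped ends (2.19), and Slx4, a nuclease scaffold (1.73), all higher in brain. Lower in brain were Chuk (-3.30), which encodes the kinase IKKα, Ikbkg (-2.36), its regulatory subunit NEMO, and Fbxo4 (-2.30), which marks TRF1 for degradation. In muscle against liver 12 were higher, led by Ten1 (3.70), Tnks2 (1.25), a tankyrase, and Ctc1 (1.43), another CST subunit. Lower were 10, led by Fbxo4 (-1.79), Chuk (-2.37) and Zbtb48 (-2.06), a telomere binding protein. In heart against liver 12 were higher and 13 lower, and in heart against brain 16 and 5. In muscle against brain 18 were higher and 8 lower, and in muscle against heart 8 and 13. Of all 37522 probes, 12709 were higher and 17605 lower in brain than in liver, 16339 and 11418 in muscle than in liver, 14206 and 11757 in heart than in liver, 17971 and 11088 in heart than in brain, 18983 and 11069 in muscle than in brain, and 12150 and 9286 in muscle than in heart.

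The genes of most similar pattern to each other member, by Pearson's r over the 24 arrays among 17170 genes, were Tapbpl for Terf1 (0.976), Ppm1l for Terf2 probe 1 (0.988), Trmt112 for Tinf2 (0.972), Fgfr3 for Acd (0.982) and Zfp180 for Terf2ip (0.925). With 4 tissues, such values follow largely from the 4 tissue means. Once group means were removed they were 0.45, 0.75, 0.63, 0.64 and 0.75.

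Promoter sequence is shown for the edited gene and for the pair of members, Tinf2 and Pot1a, that shared a cAMP response element, so that what lies upstream of these transcripts can be read. The sequences are RefSeq's on GRCm38.p6, from 250 bases before to 50 bases after the start, and 6 of the 7 members had an entry. Capitals mark matches to TGACGTCA (the element) and CCGGAAG (an ETS core), searched on both strands.
Terf2ip, chr8:112011109-112011408, plus strand: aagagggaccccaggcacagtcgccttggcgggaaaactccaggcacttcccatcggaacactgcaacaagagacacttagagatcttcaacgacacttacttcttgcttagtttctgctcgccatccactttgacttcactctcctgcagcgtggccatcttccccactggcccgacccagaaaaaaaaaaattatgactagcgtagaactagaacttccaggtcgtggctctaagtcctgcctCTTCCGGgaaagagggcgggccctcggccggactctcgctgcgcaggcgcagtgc
Tinf2, chr14:55681768-55682067, minus strand: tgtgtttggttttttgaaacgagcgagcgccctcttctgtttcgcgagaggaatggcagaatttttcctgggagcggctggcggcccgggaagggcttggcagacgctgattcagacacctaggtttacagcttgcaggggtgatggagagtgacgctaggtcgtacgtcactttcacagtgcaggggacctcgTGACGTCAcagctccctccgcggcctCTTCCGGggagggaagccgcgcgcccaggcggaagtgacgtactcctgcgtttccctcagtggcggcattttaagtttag
Pot1a, chr6:25809169-25809468, minus strand: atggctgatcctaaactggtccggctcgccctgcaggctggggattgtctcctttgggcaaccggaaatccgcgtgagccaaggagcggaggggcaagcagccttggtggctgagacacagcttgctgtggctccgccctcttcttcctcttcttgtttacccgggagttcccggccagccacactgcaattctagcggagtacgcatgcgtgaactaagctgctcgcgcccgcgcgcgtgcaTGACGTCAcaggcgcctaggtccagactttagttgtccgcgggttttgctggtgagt
The element TGACGTCA was in the windows of 2 of the 6 members, Tinf2 and Pot1a, and in 1.79% of all 32851 windows. The core CCGGAAG was in those of 3, Terf2ip, Tinf2 and Pot1b, and in 8.86% of all. The telomere repeat unit TTAGGG, which TRF1 and TRF2 bind when repeated, was in that of 1 member, Pot1b, and in 10.6% of all. GGGCGG (a GC box) was in those of 4 and in 35.7% of all, CCAAT in those of 3 and in 37.4% of all, and TATAAA in those of 0 and in 13.6% of all. None of these motifs contains another. The matches describe letters in a window and were not tested as binding sites.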

How the data were processed

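Gene expression was measured in 4 tissues of 3 KI and 3 WT mice, 1 array per sample, on 3 slides of 8 arrays. The authors extracted spot intensities with Agilent Feature Extraction 12.0.3.1 per the file headers, and the deposited processed signal, an intensity corrected for background by that program, was used. A score per feature and array, deposited for 33912 features, equalled the z-score of that array's log signals to within 0.005 and served as an alternative. No sample column was left unassigned (0).

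After removal of controls and of 121 to 347 outlier spots on each array, replicate spots were averaged, giving 55681 probes and 573 missing values. No spot was saturated (0). Each array was scaled on the log2 axis by subtracting its own 75th percentile. Gene symbols came from RefSeq's GRCm38.p6 table by accession, and 99.0% of 26732 curated mRNA probes matched. Probes detected above background by all 3 mice of some group were tested together with limma 3.58.1 in R 4.3.3 (lmFit, eBayes, two-sided, Benjamini-Hochberg, threshold 0.05). Each tissue's 6 arrays were fitted for genotype, all 24 arrays in 8 groups for tissue contrasts. With 3 mice against 3, the smallest exact two-sided permutation p is 0.1. The fits were checked on simulated data.

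The named genes are all 7 members with every probe, up to 3 listed partner genes in each direction by smallest p, and the genes of highest correlation. Members and lists were chosen with earlier results of these data known. Same-numbered samples come from the same mouse, and the consensus correlation between arrays of a mouse was -0.015 (duplicateCorrelation). Alternatives were quantile scaling, normexp (offset 50, on median spot and background intensities), the deposited scores, the filter, the probe, blocks for mouse and slide, and each mouse left out. The slide block in tissue contrasts, and leaving out the 3 arrays singled out for a marker of another tissue, were added after seeing the data. The number of arrays limits the precision, and p-values measure the spread between these mice.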

Additional observations from a re-analysis of the deposited data

How the results depend on the processing

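No shelterin probe was called between genotypes under any alternative run. Over all probes, the counts of 0 became 3 in liver and 1 in muscle with all 24 arrays in 1 fit, with or without the mouse as a block, 1 in muscle and 7 in the test of differing effects by quantile scaling, and 1 in that test without mouse B or F. The count of shelterin probes past the threshold stayed at 0 in each tissue, in the mean of tissues and in the test of differing effects. It was also 0 with the mouse as replicate block. The genotypes share no mouse, so that block pairs no KI array with a WT array. That block ended 2 calls between tissues, both of Acd, given with that gene, and changed no other. The tissue counts for muscle against liver (3 with the slide as a block) and for muscle against heart (3 with the slide as a block, 3 in WT mice only, 3 in KI mice only) moved by more than 1.5 times. The single-genotype fits hold fewer arrays, and the cause under the block was not tested. Counts without 1 mouse were 5 to 6 for brain against liver, 4 to 5 for muscle against liver and 4 to 6 for muscle against heart.

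Signs turned where differences were small. Another probe of the gene gave the opposite KI minus WT sign for Terf2ip in liver (0.076), brain (0.060), muscle (0.063) and the mean (0.026), for Terf2 in liver (-0.40), heart (0.24), muscle (-0.33 and -0.28) and the mean (-0.20 and -0.16), and for Tinf2 in muscle (-0.0079). Acd in heart became 0.045 by quantile scaling, 0.030 by normexp and 0.0033 in the deposited scores. Between tissues, another probe turned Terf2 for brain (-0.78), heart (-0.88) and muscle (-0.47) against liver, heart against brain (-0.097) and muscle against heart (-0.24), Tinf2 for muscle against liver (0.17) and heart against brain (0.43), and Terf2ip for heart against liver (0.29). Terf2ip for heart against liver became 0.036 by quantile scaling, 0.033 by normexp, 0.023 in the deposited scores and 0.063 in KI mice only. For heart against brain, Terf2 became -0.048 by quantile scaling and -0.010 in the deposited scores, and Tinf2 0.0093 by quantile scaling, 0.0048 by normexp and 0.029 in KI mice only. Leaving out 1 mouse gave KI minus WT ranges of -0.12 to 0.79 (Pot1a, liver), -0.28 to 0.031 (Tinf2, brain), -0.085 to 0.20 (Pot1a, brain), -0.091 to 0.0023 (Tinf2, heart), -0.25 to 0.31 (Pot1a, heart), -0.049 to 0.024 (Acd, heart), -0.092 to 0.18 (Terf2, muscle), -0.065 to 0.14 (Tinf2, muscle), -0.11 to 0.23 (Acd, muscle) and, in the mean, -0.051 to 0.023 (Terf1), -0.020 to 0.040 (Terf2) and -0.019 to 0.065 (Acd). Between tissues they were -0.11 to 0.13 (Terf2ip, heart against liver), -0.012 to 0.094 (Terf2, heart against brain) and -0.10 to 0.089 (Tinf2, heart against brain). Dim signal limits Pot1b, which was fitted only without the detection filter.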
